A study of Danio rerio with 4 samples.

Results

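The genes described here encode the phototransduction proteins of rods and cones, other photoreceptor proteins, and a few proteins of the neighbouring pigment epithelium and Müller glia, without the opsins. A gene was taken when a probe other than a control spot carried its symbol or, for older symbols, named it in its description. Of 41 listed genes, 38 were found, with 85 probes, among the 26632 genes with complete values. They comprised 12 genes of rods, 10 of cones, 10 of either or both cell types, 2 transcription factors and 4 genes of the pigment epithelium and Müller glia. No probe could be assigned to gngt2b, cnga3a or rgs9a. The test across all genes used the 18884 genes with a probe that both arrays measured well above background in 1 RNA pool or more, and 37 of the 38 passed this filter. The rod kinase gene grk1a did not pass, and pde6b passed only through the mutant pool of 6 days post fertilization (dpf).

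RNA came from whole zebrafish embryos of the strain WIK, kept untreated in E3 medium at 28 °C. The 4 groups were Msp mutants at 6 dpf, wild type at 6 dpf, Msp mutants at 3 dpf and wild type at 3 dpf, with 1 pool of 30 embryos each. Msp, macrophage stimulating protein, is a secreted ligand encoded by mst1; the labels give neither the allele nor the way mutants were recognised. Each stage was hybridised on 2 two-colour arrays with the dyes swapped, so the design had 4 pools, no biological replicate within a stage, and no test within a stage. The ± values give the SD between the 2 dye-swapped arrays, which covers the spread of labelling and hybridisation but not that between embryos. In pools of whole embryos, fewer cells of a type and less RNA per cell cannot be told apart.

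The arrays lay on 1 slide, had no saturated spot, and had 59.6% to 69.2% of probes well above background in green (Cy3) and 73.5% to 74.8% in red (Cy5). Across genes, the turned log2 ratios of the dye-swapped arrays correlated at 0.403 at 6 dpf and 0.412 at 3 dpf. Arrays of the same dye orientation at the different stages correlated at 0.446 and 0.548. A ratio that differs between the arrays of a stage is therefore given for each array. The transcript of the mutated gene, mst1, had log2 ratios (mutant over wild type) of -1.01 and -1.24 on the 6 dpf arrays and -0.70 and -0.61 on the 3 dpf arrays. It fell by 0.89 over both stages (limma, adjusted p = 0.0413).

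In the vertebrate photoreceptor, light-activated opsin switches on the G protein transducin. Transducin relieves the inhibition of a cyclic GMP phosphodiesterase, the fall in cyclic GMP closes cation channels, and the cell hyperpolarizes. Opsin kinases and arrestins end the response, and calcium-binding proteins adjust it. Rods and cones use the same scheme with mostly separate genes for each step. In zebrafish, cones mature early and carry most of larval vision, and rods become functional later. The pigment epithelium and Müller glia return the spent chromophore through the retinoid cycle.

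Photoreceptor transcripts without the opsins were higher in the mutant pools, more so at 6 dpf than at 3 dpf. The differences were below 2-fold for the brightest probe of each of the 38 genes. With Agilent's processed signals, 2 genes near background passed 2-fold at 6 dpf, pde6b with a log2 ratio of 1.19 (0.35 here) and grk1a with 1.60 (0.31 here). The median log2 ratio of mutant over wild type over the 38 genes was 0.34 at 6 dpf and 0.12 at 3 dpf. On the single arrays the median was 0.38 and 0.33 at 6 dpf and 0.13 and 0.12 at 3 dpf. The medians of all 18884 genes tested were 0.0073 at 6 dpf and 0.0147 at 3 dpf. The ratio was above 0 for 35 of the 38 genes at 6 dpf and 29 at 3 dpf. It was above 0 on both arrays for 31 genes at 6 dpf, against 29.2% of all genes tested, and for 25 at 3 dpf, against 31.3%. It was above 0 on all 4 arrays for 23 genes, against 13.6% of all genes. The ratio was larger at 6 dpf than at 3 dpf for 32 of the 38 genes, against 48.3% of all genes.

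A moderate difference was defined as a mean log2 ratio of at least 0.3 with the same sign on both arrays. By this rule 22 of the 38 genes were higher in the mutant at 6 dpf, where 4.46% of all genes tested were, and 7 at 3 dpf, where 4.67% were. All 7 genes past the rule at 3 dpf were also among the 22. The 22 include grk1a, which was not among the genes tested, and pde6b, which passed the filter only through the mutant pool, and without these 20 of 36 genes were higher at 6 dpf. None of the 38 was lower by this rule at 6 dpf or 3 dpf, where 4.88% and 4.42% of all genes were. None of the 38 reached the larger size of a mean log2 ratio of 1 with at least 0.5 on each array. Upward, 0.254% of all genes reached it at 6 dpf and 0.154% at 3 dpf. By limma over the stage values, 3 of the 37 genes tested rose in the mutant, against 0.455% of all genes, and none fell, against 0.609%. At an unadjusted p under 0.05, 18 genes were higher and 0 were lower, against 6.85% and 6.73% of all genes. Each gene had 1 residual degree of freedom in this test.

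**Figure D1:**
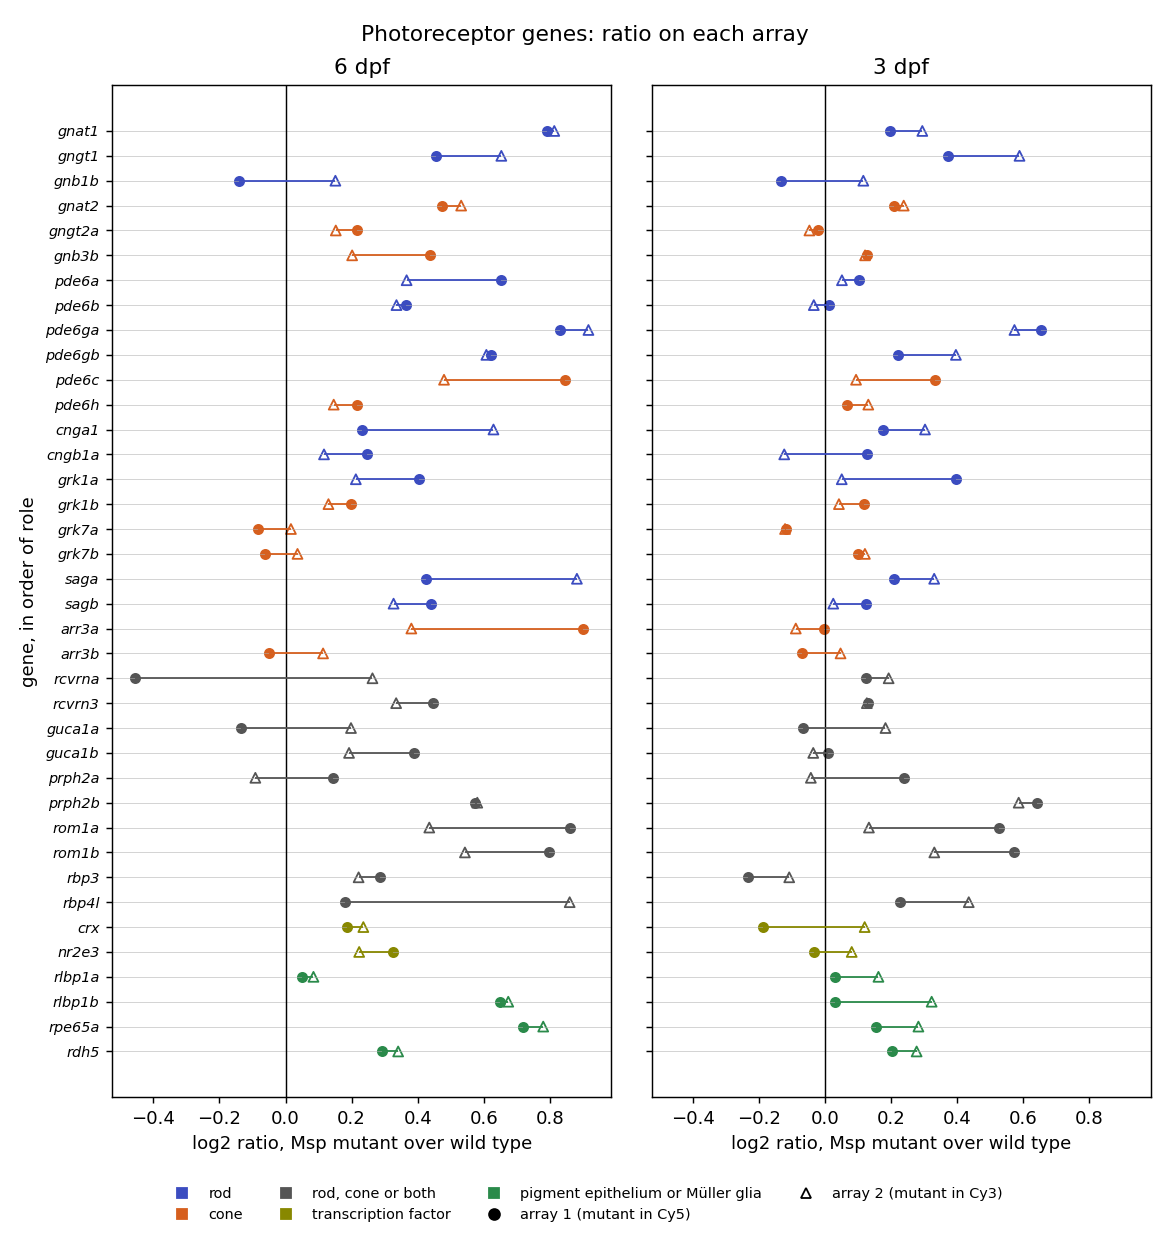
Log2 ratio of Msp mutant over wild type (x axis) for each of the 38 genes (y axis, in order of role) at 6 dpf (left) and 3 dpf (right). Circles are array 1, with the mutant in Cy5, triangles are array 2, with the mutant in Cy3, lines join the arrays of a stage, and colours give the cell type. At 6 dpf 31 genes lie right of 0 on both arrays, and at 3 dpf 25 do.

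Transducin consists of an alpha, a beta and a gamma subunit. The gamma subunit gene of rods, gngt1, had log2 signals of 12.08 in the mutant pool and 11.52 in the wild-type pool at 6 dpf, and of 11.74 in the mutant pool and 11.26 in the wild-type pool at 3 dpf. Its log2 ratio was 0.46 and 0.65 on the 6 dpf arrays and 0.37 and 0.59 on the 3 dpf arrays. The mutant was higher on every array, and gngt1 rose by 0.52 over both stages, 1.43-fold (limma, adjusted p = 0.0458). This call lies close to the threshold of 0.05. It was lost with Agilent's processed signals (adjusted p = 0.186), with an offset of 10 (0.0698), without background subtraction (0.0545), with median centring (0.052), without array 1 (0.0507) or array 2 (0.103) of 6 dpf, and with unnamed probes left out (0.0567).

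The alpha subunit gene of rods, gnat1, stood at 0.79 and 0.81 on the 6 dpf arrays, against 0.20 and 0.29 on the 3 dpf arrays. Its log2 signal at 6 dpf was 11.22 in the mutant pool and 10.41 in the wild-type pool. Limma over both stages did not call it (log2 0.52, adjusted p = 0.179), and its stage values lay 0.56 apart. A second probe of gnat1 gave mean ratios of 0.77 at 6 dpf and 0.27 at 3 dpf. The rod beta subunit gene gnb1b was at 0.0050 ± 0.21 at 6 dpf and -0.0077 ± 0.18 at 3 dpf, the lowest of the class over both stages, and its arrays differed in sign. One of its 4 probes stood apart with mean ratios of 0.39 at 6 dpf and 0.49 at 3 dpf, and gnb1b is also expressed outside the eye.

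The brightest probe of the cone alpha subunit gene gnat2 had ratios of 0.47 and 0.53 on the 6 dpf arrays. On the 3 dpf arrays it had 0.21 and 0.24, so both arrays of a stage were close together. The other probes of gnat2 gave mean ratios of 0.37 and 0.495 at 6 dpf and 0.08 and 0.10 at 3 dpf. The first of these lay apart on the 6 dpf arrays, at 0.55 and 0.20. The cone beta subunit gene gnb3b stood at 0.44 and 0.20 on the 6 dpf arrays and at 0.13 and 0.12 on the 3 dpf arrays. Its other probes gave mean ratios of 0.26 to 0.42 at 6 dpf. On array 2 of 6 dpf its second brightest probe had 0.02 and its dimmest -0.03. With median centring the ratio of gnb3b at 6 dpf was 0.19, below the moderate size. The cone gamma subunit gene gngt2a stood at 0.21 and 0.15 on the 6 dpf arrays and at -0.02 and -0.05 on the 3 dpf arrays. Thus by the brightest probes each of the 6 transducin genes had a larger ratio at 6 dpf, against 48.3% of all genes tested. For gnb1b the difference between stages was 0.01, below the SD between its arrays, and its probes went both ways. At 6 dpf 4 of the 6 genes were higher in the mutant by the moderate rule, against 4.46% of all genes.

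The phosphodiesterase has catalytic subunits, pde6a and pde6b in rods and pde6c in cones, and small inhibitory gamma subunits, pde6ga and pde6gb in rods and pde6h in cones. Of the 38 genes, pde6ga had the highest ratio at each stage. Its log2 signal was 11.89 in the mutant pool and 11.01 in the wild-type pool at 6 dpf, and 8.05 in the mutant pool and 7.43 in the wild-type pool at 3 dpf. The ratio was 0.83 and 0.92 on the 6 dpf arrays and 0.66 and 0.57 on the 3 dpf arrays. The mutant was higher on every array, and pde6ga rose by 0.74 over both stages, 1.68-fold (limma, adjusted p = 0.0303). This call was lost with Agilent's processed signals (adjusted p = 0.106) and without background subtraction (0.0592). It rests on 1 probe.

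The second rod gamma subunit gene, pde6gb, had ratios of 0.62 and 0.61 on the 6 dpf arrays and 0.22 and 0.40 on the 3 dpf arrays. Its 4 probes had mean ratios of 0.47 to 0.73 at 6 dpf and 0.31 to 0.47 at 3 dpf. The cone counterpart pde6h had 0.22 and 0.15 on the 6 dpf arrays and 0.07 and 0.13 on the 3 dpf arrays. The other probes of pde6h gave mean ratios of 0.32 and 0.35 at 6 dpf and -0.06 and 0.05 at 3 dpf, so its ratio at 6 dpf depended on the probe. On the brightest probes both rod gamma subunit genes had larger ratios than pde6h on each of the 4 arrays, but 1 pde6h probe, at 0.53 on array 2 of 6 dpf, lay above 1 pde6gb probe, at 0.49. On the brightest probes the difference of log2 ratios, pde6ga minus pde6h, was 0.69 at 6 dpf and 0.52 at 3 dpf, and pde6gb minus pde6h was 0.43 at 6 dpf and 0.21 at 3 dpf. No test of these differences was made, as each stage held 1 pool a genotype.

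As processed here, the catalytic subunits did not show a larger ratio for the rod genes. The cone gene pde6c had ratios of 0.84 and 0.48 on the 6 dpf arrays and 0.33 and 0.09 on the 3 dpf arrays. The rod gene pde6a had 0.65 and 0.37 on the 6 dpf arrays and 0.10 and 0.05 on the 3 dpf arrays. The rod gene pde6b had 0.37 and 0.34 on the 6 dpf arrays and 0.01 and -0.03 on the 3 dpf arrays, where its probe was not well above background in either pool. Thus pde6a minus pde6c was -0.15 at 6 dpf and -0.14 at 3 dpf, and was below 0 on all 4 arrays. With Agilent's processed signals the ratios at 6 dpf were 0.71 for pde6a and 0.70 for pde6c, so the difference depended on the processing. By the brightest probes, 5 of the 6 phosphodiesterase genes were higher in the mutant by the moderate rule at 6 dpf, against 4.46% of all genes tested. The exception was pde6h, whose other probes passed the rule. The 5 include pde6b, which passed the filter on signal only through the mutant pool of 6 dpf.

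The cyclic nucleotide-gated channel was represented by rod genes. The channel subunit gene cnga1 had ratios of 0.23 and 0.63 on the 6 dpf arrays and 0.18 and 0.30 on the 3 dpf arrays. It was named through the description of its probes, which does not settle which of the zebrafish cnga1 paralogs they read. The regulatory subunit gene cngb1a was dim, and its ratio was 0.18 ± 0.09 at 6 dpf and 0.0014 ± 0.18 at 3 dpf.

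Opsin kinases phosphorylate activated opsin, grk1a in rods and grk1b, grk7a and grk7b in cones. Their median log2 ratio was 0.08 over the 4 genes at 6 dpf and 0.10 at 3 dpf. The highest, grk1a, had 0.40 and 0.21 on the 6 dpf arrays and 0.40 and 0.05 on the 3 dpf arrays, from a probe that was not well above background on both arrays of any pool. The lowest, grk7a, had -0.08 and 0.02 on the 6 dpf arrays and -0.12 on each 3 dpf array. The other probes of grk7a gave 0.26 and 0.24 at 6 dpf, so its sign at that stage depended on the probe. Neither grk1b (0.16 ± 0.05) nor grk7b (-0.01 ± 0.07) reached the moderate size at 6 dpf.

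Arrestins bind phosphorylated opsin and stop its signalling. The rod arrestin gene saga stood at 0.42 and 0.88 on the 6 dpf arrays and at 0.21 and 0.33 on the 3 dpf arrays. The second rod arrestin gene, sagb, stood at 0.44 and 0.33 on the 6 dpf arrays and at 0.12 and 0.03 on the 3 dpf arrays. The cone arrestin gene arr3a stood at 0.90 and 0.38 on the 6 dpf arrays, against -0.0021 and -0.09 on the 3 dpf arrays, and its second probe gave mean ratios of 0.65 at 6 dpf and 0.01 at 3 dpf. The other cone arrestin gene, arr3b, stood at 0.03 ± 0.11 at 6 dpf and -0.01 ± 0.08 at 3 dpf, the lowest of the class over both stages. At 6 dpf arr3a was thus above arr3b in log2 ratio on both arrays.

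The calcium sensors include recoverins, which restrain opsin kinases, and the guanylate cyclase activators guca1a and guca1b. Over both stages the recoverin gene rcvrn3 was the highest of this class, with 0.45 and 0.33 on the 6 dpf arrays and 0.13 on each 3 dpf array. The lowest over both stages was rcvrna, although it was the highest at 3 dpf, with -0.46 and 0.26 on the 6 dpf arrays and 0.12 and 0.19 on the 3 dpf arrays. Both probes of rcvrna showed this split by dye orientation at 6 dpf. At 6 dpf guca1b had 0.39 and 0.19, and guca1a had -0.14 and 0.20. Only rcvrn3 among these 4 genes was higher by the moderate rule.

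Peripherin (prph2a, prph2b) and Rom1 (rom1a, rom1b) are tetraspanins that shape the rim of outer segment discs. The log2 signal of prph2b was 11.30 in the mutant pool and 10.72 in the wild-type pool at 6 dpf, and 10.04 in the mutant pool and 9.43 in the wild-type pool at 3 dpf. Its ratio was 0.57 and 0.58 on the 6 dpf arrays and 0.64 and 0.59 on the 3 dpf arrays, the closest agreement between all 4 arrays among the genes called. It rose by 0.60 over both stages, 1.51-fold (limma, adjusted p = 0.0311). The call was lost with Agilent's processed signals (adjusted p = 0.154) and with the mean of all probes (0.147). The other probes of prph2b, which were dimmer, gave mean ratios of 0.15 and 0.10 at 6 dpf and 0.11 and 0.01 at 3 dpf. Thus the difference in prph2b rests on 1 of 3 probes.

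The probes of rom1b gave a more even picture. Its brightest probe had 0.80 and 0.54 on the 6 dpf arrays and 0.57 and 0.33 on the 3 dpf arrays, and its other probes gave 0.60 and 0.53 at 6 dpf and 0.38 and 0.31 at 3 dpf. Limma over both stages did not call rom1b (log2 0.56, adjusted p = 0.0537). The brightest probe of rom1a had 0.86 and 0.44 on the 6 dpf arrays and 0.53 and 0.13 on the 3 dpf arrays. Of its 5 probes, 1 ran the other way with mean ratios of -1.16 at 6 dpf and -1.08 at 3 dpf, so the direction for rom1a depended on the probe. The lowest of the class over both stages were rbp3, described next, and prph2a, with 0.14 and -0.09 on the 6 dpf arrays and 0.24 and -0.04 on the 3 dpf arrays.

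The interphotoreceptor matrix protein Rbp3 carries retinoids between photoreceptors and pigment epithelium. Its gene had ratios of 0.28 and 0.22 on the 6 dpf arrays, against -0.23 and -0.11 on the 3 dpf arrays, the lowest mean of the 38 genes at 3 dpf. The photoreceptor retinol-binding protein gene rbp4l had 0.18 and 0.86 on the 6 dpf arrays and 0.23 and 0.44 on the 3 dpf arrays. The homeobox gene crx, an activator of photoreceptor genes, stood at 0.21 ± 0.04 at 6 dpf and -0.03 ± 0.22 at 3 dpf. The rod fate regulator nr2e3 stood at 0.27 ± 0.07 at 6 dpf and 0.02 ± 0.08 at 3 dpf. Neither transcription factor reached the moderate size.

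The 4 retinoid cycle genes of the set were higher in the mutant on every array by their brightest probes. Other probes of rlbp1a and rlbp1b were below 0 on single 3 dpf arrays, at -0.12, -0.10 and -0.07. The isomerase gene rpe65a of the pigment epithelium had log2 signals of 13.03 in the mutant pool and 12.28 in the wild-type pool at 6 dpf, and of 14.52 in the mutant pool and 14.30 in the wild-type pool at 3 dpf. Its ratio was 0.72 and 0.78 on the 6 dpf arrays and 0.15 and 0.28 on the 3 dpf arrays. The retinaldehyde-binding protein gene rlbp1b stood at 0.65 and 0.67 on the 6 dpf arrays and at 0.03 and 0.32 on the 3 dpf arrays. The retinol dehydrogenase gene rdh5 stood at 0.29 and 0.34 on the 6 dpf arrays and at 0.20 and 0.28 on the 3 dpf arrays. The second retinaldehyde-binding protein gene, rlbp1a, was the lowest, at 0.07 ± 0.02 at 6 dpf and 0.10 ± 0.09 at 3 dpf. Limma over both stages called none of the 4 genes, with adjusted p-values of 0.195 for rpe65a, 0.224 for rlbp1b, 0.187 for rdh5 and 0.682 for rlbp1a, and 3 of them had unadjusted p-values under 0.05.

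Among the 38 genes, which leave out the opsins, the rod genes as a group had larger ratios than the cone genes at each stage. Their median log2 ratio was 0.47 for the 12 rod genes and 0.18 for the 10 cone genes at 6 dpf, and 0.23 for the rod genes and 0.09 for the cone genes at 3 dpf. On the single arrays at 6 dpf the medians were 0.43 and 0.49 for rod genes and 0.22 and 0.15 for cone genes. On the 3 dpf arrays they were 0.19 and 0.21 for rod genes and 0.08 and 0.07 for cone genes. The rod median was thus above the cone median on each of the 4 arrays, by 0.29 at 6 dpf and 0.14 at 3 dpf for the stage means. At 6 dpf 10 of the 12 rod genes and 4 of the 10 cone genes were higher by the moderate rule, against 4.46% of all genes tested. At 3 dpf 3 rod genes and 0 cone genes were, against 4.67%, and the cone count lies near that share. Without grk1a and pde6b, both near background, 8 of 10 rod genes were higher at 6 dpf, with a median ratio of 0.53. No p is given, since genes are not replicates of a condition.

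The groups overlapped gene by gene. At 6 dpf rod genes ran from 0.0050 (gnb1b) to 0.87 (pde6ga), and cone genes from -0.03 (grk7a) to 0.66 (pde6c). At 3 dpf rod genes ran from -0.01 (pde6b) to 0.61 (pde6ga), and cone genes from -0.12 (grk7a) to 0.22 (gnat2). Counterparts of the same step did not all favour the rod gene. At 6 dpf gnat1 minus gnat2 was 0.30 and gngt1 minus gngt2a was 0.37. By contrast gnb1b minus gnb3b was -0.31 and pde6a minus pde6c was -0.15. With Agilent's processed signals pde6a stood at 0.71 and pde6c at 0.70, so their order was not settled. No difference is read for pde6b, whose signal was near background. Its ratio lay below that of pde6c here but above it with Agilent's processed signals, at 1.19 for pde6b and 0.70 for pde6c. Saga minus arr3a was 0.01, with -0.48 and 0.50 on the single arrays, and saga minus arr3b was 0.62. Sagb minus arr3a was -0.26, negative on both arrays, and sagb minus arr3b was 0.35. With grk1a near background, grk1a minus grk7a was 0.34 and grk1a minus grk1b was 0.14.

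**Figure D2:**
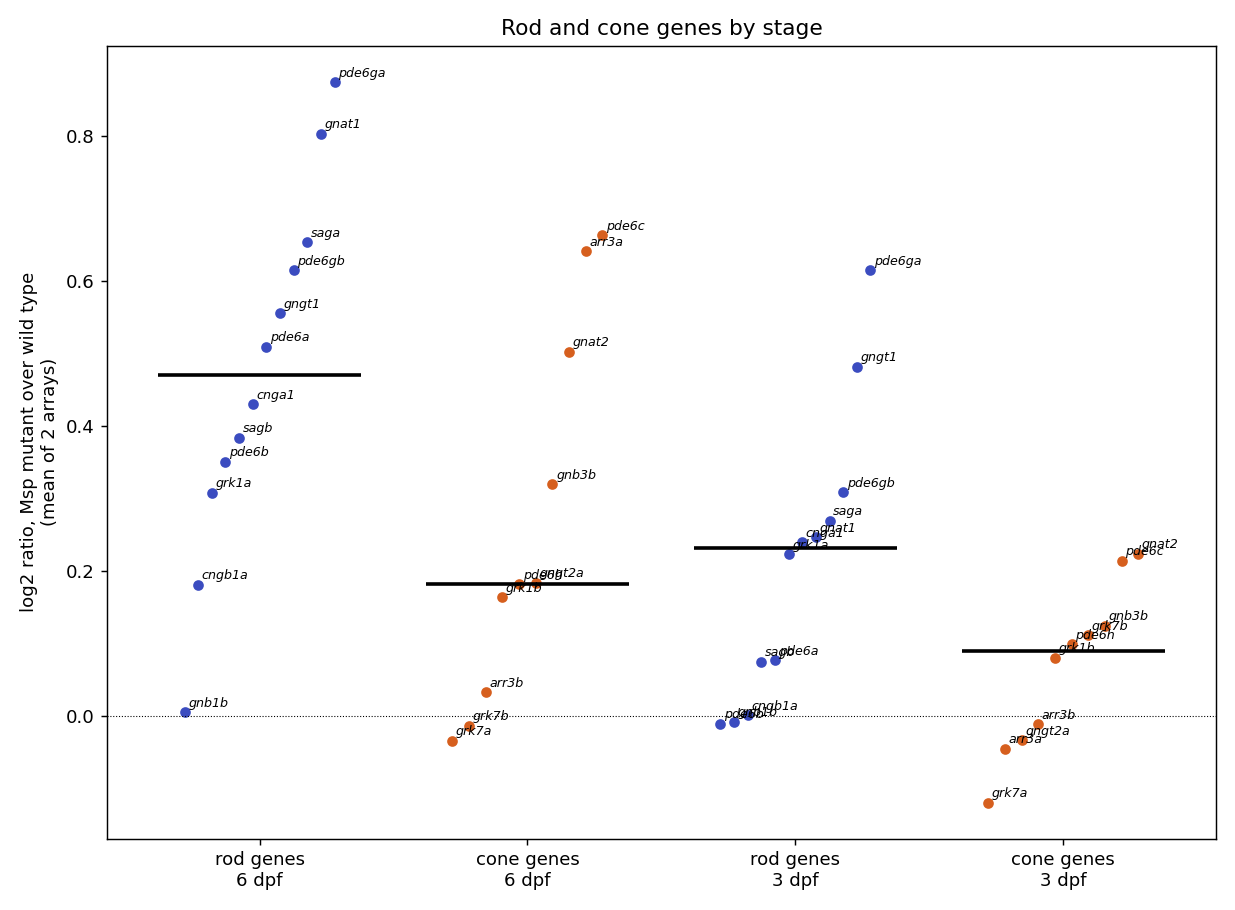
Log2 ratio of Msp mutant over wild type (y axis, mean of 2 arrays) of the 12 rod genes and 10 cone genes at 6 dpf (left) and 3 dpf (right). Points are genes, sorted within a group, and thick lines are medians, which stand at 0.47 for rod and 0.18 for cone genes at 6 dpf and at 0.23 for rod and 0.09 for cone genes at 3 dpf.

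Between the stages, the inhibitory phosphodiesterase subunit genes pde6ga and pde6h and the matrix gene rbp3 changed most. By limma over the 4 pools, with a 2-fold minimum, 10 of the 37 genes tested rose at 6 dpf, against 4.92% of all genes, and 3 fell, against 5.38%. No array held both stages, so stage and array cannot be told apart. Each gene had 1 residual degree of freedom, and the p-values do not measure the spread between pools of a stage. The log2 rise was 3.71 for pde6ga (13.1-fold, adjusted p = 1.25e-05), 2.71 for pde6h (6.56-fold, adjusted p = 1.51e-05) and 2.64 for rbp3 (6.24-fold, adjusted p = 4.08e-05). Of the catalytic subunits, pde6c rose by 1.65 and pde6a by 1.15. In wild type pde6ga had a log2 signal of 11.01 at 6 dpf and 7.43 at 3 dpf, and in the mutant 11.89 at 6 dpf and 8.05 at 3 dpf.

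The other genes that rose were gnat2 (1.20) and the disc and matrix genes rom1b (1.47), prph2b (1.27), rbp4l (1.27) and prph2a (1.24), with adjusted p-values between 7.24e-05 and 0.000175. For pde6b, which was not well above background in either 3 dpf pool, the 6 dpf level was 1.35-fold a floor. This floor was set by the lowest signal that counted as well above background at 3 dpf. It gives no strict bound, as only 3 of the 4 channels of pde6b at 6 dpf were well above background. All 3 genes that fell belong to the retinoid cycle: rpe65a (-1.76, adjusted p = 0.00016), rdh5 (-1.20, adjusted p = 8.94e-05) and rlbp1b (-1.17, adjusted p = 0.000541). The log2 change at 6 over 3 dpf was -1.49 in the mutant and -2.02 in wild type for rpe65a, -0.93 in the mutant and -1.42 in wild type for rlbp1b, and -1.16 in the mutant and -1.24 in wild type for rdh5.

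Rod and cone genes had nearly the same change between stages. The median log2 change at 6 over 3 dpf was 0.65 over the 11 rod genes tested and 0.66 over the 10 cone genes, and over all genes tested it was 0.0074. The medians in the single genotypes were 0.74 in the mutant and 0.48 in wild type for the 12 rod genes, and 0.73 in the mutant and 0.59 in wild type for cone genes. Of the 11 rod genes tested 2 rose with the 2-fold minimum, pde6ga and pde6a, against 4.92% of all genes. Of the 10 cone genes 3 did, gnat2, pde6c and pde6h, against the same share. All 12 rod genes and 9 of 10 cone genes had a larger change in the mutant than in wild type, grk7b being the exception. This restates the larger ratio at 6 dpf than at 3 dpf given above, which 48.3% of all genes had, and is no second result. The rod genes grk1a and pde6b were near background. No test of this difference between genotypes was possible with 1 pool for each genotype and stage. The change differed most for arr3a, at 0.32 in the mutant and -0.36 in wild type, and for gnat1, at 1.08 in the mutant and 0.52 in wild type.

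**Figure D3:**
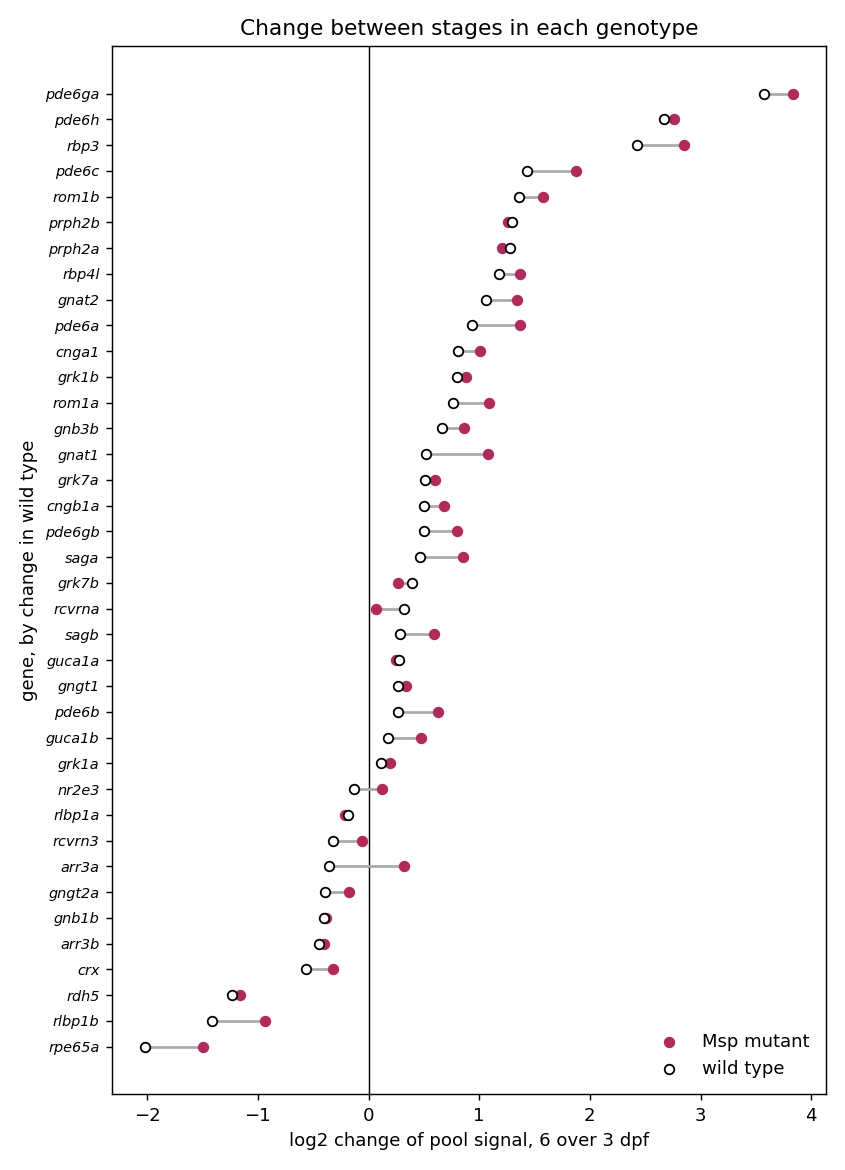
Log2 change of the pool signal at 6 over 3 dpf (x axis) for each of the 38 genes (y axis, ordered by the change in wild type). Filled points are the Msp mutant pools and open points the wild-type pools. The filled point is further right for 32 genes, the same genes whose ratio was larger at 6 than at 3 dpf.

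A list of 68 other genes was followed, of which 61 passed the filter. It held genes of phototransduction, the retinoid cycle, and photoreceptor structure, metabolism and synapses. It also held transcription factors, such as nrl, six7 and neurod1, so it does not read the pathway alone. The median log2 ratio over the 68 genes was 0.08 at 6 dpf and 0.06 at 3 dpf. By the moderate rule 12 were higher and 3 lower at 6 dpf, where 4.46% and 4.88% of all genes were, and 3 were higher and 2 lower at 3 dpf, where 4.67% and 4.42% were. The counts at 3 dpf lie near those shares. The 12 genes higher at 6 dpf include cplx4c (0.32), which passed the filter on signal only through the mutant pools. Limma over both stages called none of the 61 genes, against 0.455% of all genes higher and 0.609% lower. That count lies near those shares. By stage 6 rose, against 4.92% of all genes, and 3 fell, against 5.38%. The retinoid cycle genes of this list went both ways at 6 dpf. Above 0 were, among others, abca4a, at 0.505 at 6 dpf and 0.34 at 3 dpf, and rdh8b, at 0.37 at 6 dpf and 0.14 at 3 dpf. At or below 0 were, among others, dhrs9, at -0.43 at 6 dpf and -0.22 at 3 dpf, and lratb, at -0.0096 at 6 dpf and -0.28 at 3 dpf. A further gene, rpe65b, was at -0.01 at 6 dpf and 0.0053 at 3 dpf. The highest ratios were those of cabp4, a calcium-binding protein of the photoreceptor synapse, with 1.01 and 0.80 on the 6 dpf arrays and 0.36 and 0.69 on the 3 dpf arrays (limma, log2 0.72, adjusted p = 0.0515). The lowest was prom1b, a prominin, with -0.39 and -0.80 on the 6 dpf arrays and -0.28 and -0.60 on the 3 dpf arrays (limma, log2 -0.52, adjusted p = 0.0538).

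Gene lists used as markers of other eye cells and of the pineal organ were compared on the same arrays. As the RNA came from whole embryos, these lists also read any expression outside the eye. Their medians therefore do not measure the retinal cells alone. The median log2 ratio of the 10 opsin genes was 0.27 at 6 dpf and 0.11 at 3 dpf. Their ratios at 6 dpf ran from -0.13 (opn1mw3, near background) to 1.24 (opn1lw1). The rod opsin gene rho was at 0.73, with 1.07 and 0.38 on the single 6 dpf arrays. The cone opsin genes opn1lw1 and opn1mw2 (1.09) reached the larger size defined above at 6 dpf, against 0.254% of all genes. Both lay above each of the 38 genes. The median log2 ratio of the 6 Müller glia markers, which include rlbp1a, was 0.19 at 6 dpf and 0.05 at 3 dpf. Retinal precursor markers stood at 0.19 at 6 dpf and 0.06 at 3 dpf. At 6 dpf the medians of the bipolar, amacrine and horizontal, and ganglion cell markers were 0.02, 0.05 and 0.03, and at 3 dpf they were 0.09, 0.12 and 0.04. Pineal markers, whose cells share many phototransduction genes, stood at 0.11 at 6 dpf and 0.15 at 3 dpf, with exorh at 0.74 and -0.64 on the 6 dpf arrays.

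Pigment cell markers stood at -0.03 at 6 dpf and 0.02 at 3 dpf, beside the higher rpe65a and rdh5. Between stages 3 of these 6 markers fell at 6 dpf, against 5.38% of all genes. Lens markers were lower in the mutant at 6 dpf, with a median of -0.38. At 3 dpf their median was -0.12, but the single arrays differed in sign, at 0.07 and -0.12, and 3 of the 7 genes were above 0. Summed over the 7 lens markers, the linear signal at 6 dpf was 57236 in the mutant pool and 90125 in the wild-type pool. Such a sum weighs bright genes most. The log2 signal of crybb1 was 15.23 in the mutant pool and 15.76 in the wild-type pool at 6 dpf. That of crybgx was 12.85 in the mutant pool and 14.34 in the wild-type pool, and that of cryaa 11.89 in each. The part of the other eye markers in the differences of the photoreceptor genes was not tested.

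**Figure D4:**
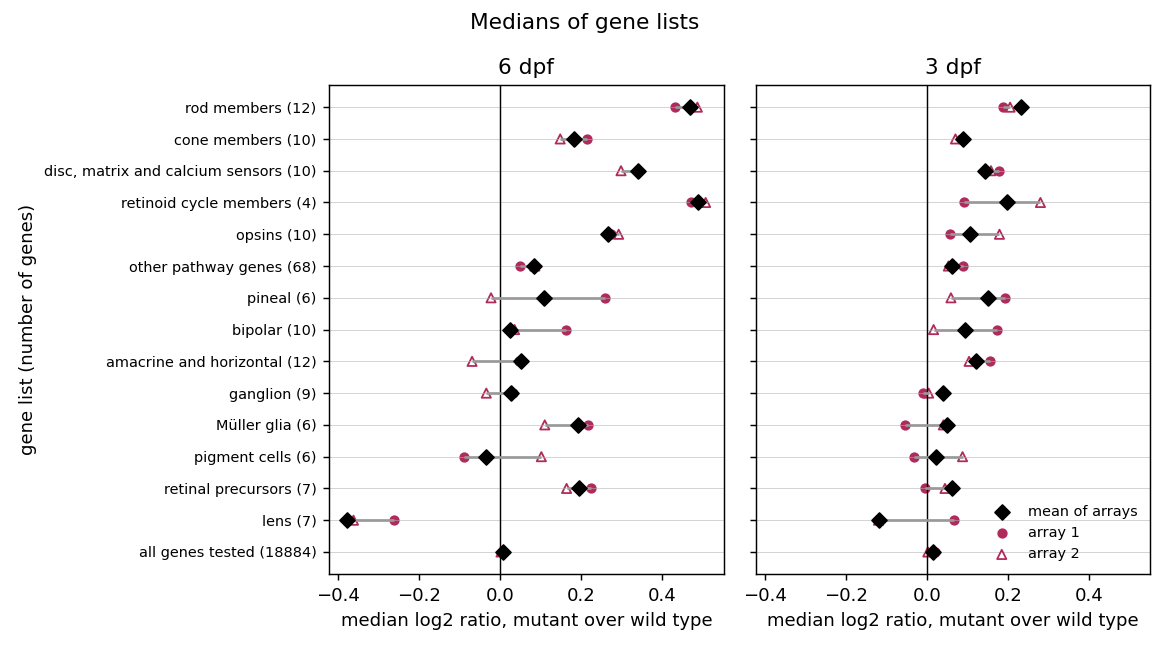
Median log2 ratio of Msp mutant over wild type (x axis) of each gene list (y axis, number of genes in brackets) at 6 dpf (left) and 3 dpf (right). Diamonds are medians of the stage means, circles array 1 and triangles array 2, and at 6 dpf rod and retinoid cycle genes lie furthest right and lens markers furthest left.

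The sign of the ratio agreed only in part between probes of a gene. Of the 85 probes, 81 met the same condition on signal, and of these 75 had a mean ratio above 0 at 6 dpf and 62 at 3 dpf. Among the 25 genes with more than 1 such probe, all probes had one sign in 22 genes at 6 dpf and in 15 at 3 dpf. The exceptions at 6 dpf were gnb1b, grk7a and rom1a. Probes named rgs9, which the annotation does not assign to rgs9a or rgs9b, had mean ratios of 0.16 and 0.22 at 6 dpf and 0.10 each at 3 dpf. On the single 6 dpf arrays the first had -0.13 and 0.44, and the second had 0.06 and 0.37.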

How the data were processed

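The genes and lists were chosen with earlier results of these data known. Per the file headers, Agilent Feature Extraction 10.5.1.1 made the scanner files, and the probes were annotated to danRer 6 (Zv 8). The version in the submitters' processing notes is 8.5.1.1. The deposited files hold linear intensity per spot, the median signal and local background in both dyes. For the deposited series table the scale was found by comparison with the scanner values. The authors deposited 2 of its columns as the array's own log2 ratio (mutant over wild type), and the column for array 2 of 6 dpf as the mean log2 ratio of both arrays, within 0.00495 for nearly all probes. The column for array 1 of 3 dpf, deposited with no stated scale, was taken as a score of unknown order, since it correlated with its own array at 0.000449, and was not used. All column medians were 0.

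In R 4.3.3 with limma 3.58.1, background was corrected by normexp (offset 50), and ratios were normalized by loess within arrays. Control and outlier spots were left out, 9 of the 1417 control spots because their cells were shifted in 1 file. Ratios were turned to mutant over wild type, spots and dye-swapped arrays were averaged, and the brightest probe represented a gene. Pool signals followed Aquantile normalization. The genotype test set the 2 stage values against 0 in limma, and the stage test fitted genotype and stage to the 4 pools. P-values were adjusted by Benjamini-Hochberg over 18884 genes, with 0.05 as the threshold. On simulated data the genotype test called more unchanged genes than this threshold allows. Array numbers mark dye orientation. Values per array are given for genes called, for the highest and lowest of each role over both stages, and for rod and cone counterparts. The number of arrays limits the precision. Probes with no symbol were first left out and then added, keyed by accession, after the calls had been seen. Python 3.11.15, numpy 2.4.6 and pandas 2.3.3 served to read the files, and matplotlib 3.10.9 to draw the figures.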

Additional observations from a re-analysis of the deposited data

Results flagged for a closer look

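The log2 ratio of mutant over wild type had opposite signs at the stages on every array for 3 genes. In each it was above 0 at 6 dpf and below 0 at 3 dpf, and the difference between the stages was not tested. For the cone arrestin gene arr3a, the ratio at 6 dpf minus that at 3 dpf was 0.69. The 6 dpf arrays gave 0.90 and 0.38 and the 3 dpf arrays -0.0021 and -0.09, so its sign at 3 dpf rests on values close to 0. For rbp3 the difference was 0.42, with 0.28 and 0.22 on the 6 dpf arrays and -0.23 and -0.11 on the 3 dpf arrays. For the cone transducin gene gngt2a it was 0.22, with 0.21 and 0.15 on the 6 dpf arrays and -0.02 and -0.05 on the 3 dpf arrays. With 2 arrays a stage, outlying arrays were not looked for.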

How the results depend on the processing

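No paired analysis was possible because the array numbers mark dye orientation, and each stage had 1 pool a genotype. Under the alternatives tried, the medians of the 38 genes, the rod minus cone medians at each stage and the 3 genes called for genotype kept their direction. At 6 dpf the median ratio of the 38 genes was 0.51 with Agilent's processed signals. The authors' series table also gave 0.51, but its column holds the mean of those same processed ratios and is no separate check. The median at 6 dpf was 0.29 without background subtraction and 0.45 with an offset of 10. It was 0.29 with the mean of all probes, and 0.33 to 0.38 without 1 array. At 3 dpf it was 0.18 with processed signals, 0.115 without background subtraction, 0.13 with an offset of 10, 0.091 with the mean of all probes, 0.0947 with the mean of detected probes, 0.079 with median centring, and 0.12 to 0.13 without 1 array. The mean of detected probes, and leaving out probes with no symbol, were chosen after seeing the data, as was leaving out grk1a and pde6b, which gave 0.35 at 6 dpf and 0.12 at 3 dpf. The number of genes past the moderate size at 3 dpf was 12 with processed signals and 3 with median centring, against 7 as reported. At 6 dpf it was 26 with processed signals, 19 without background subtraction, 18 with the mean of all probes and 16 with median centring, against 22 as reported.

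The genotype test depended most on the settings. It called 0 of the genes with processed signals (where 26 of all genes were called), 1 without background subtraction, and 2 to 10 without 1 array. These counts were 6 without array 1 and 10 without array 2 of 3 dpf. Over all genes it called 400 with no filter, 128 with unnamed probes left out, 402 without array 1 and 770 without array 2 of 3 dpf, and 182 to 770 without 1 array, against 201 as reported. The cause was not tested.

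Without grk1a and pde6b the rod minus cone median was 0.35 at 6 dpf and 0.15 at 3 dpf. At 6 dpf it was 0.445 with processed signals, 0.39 with an offset of 10, 0.20 with the mean of all probes, and 0.22 to 0.34 without 1 array. At 3 dpf it was 0.29 with processed signals, 0.10 without background subtraction, 0.17 with an offset of 10, 0.17 with median centring, and 0.10 to 0.14 without 1 array. For the change at 6 over 3 dpf, rod minus cone was -0.04 as computed, 0.11 with processed signals, 0.059 with an offset of 10, and -0.17 to 0.0068 without 1 array, so it has no settled sign. Stage counts stayed at 10 higher and 3 lower without any 1 array. The higher count was 14 with processed signals and 8 with the mean of all probes, and the lower count stayed at 3. Signals near background limit grk1a, pde6b, cngb1a, guca1a and guca1b.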
